A study of Mus musculus with 6 samples.

Results

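Mitochondria make only a handful of their own proteins, and the rest are encoded in the nucleus, made in the cytosol and imported as unfolded precursors. Precursors enter through the TOM complex of the outer membrane. From there the small TIM chaperones carry hydrophobic precursors across the intermembrane space, the TIM22 complex inserts carrier proteins into the inner membrane, and the TIM23 complex with its ATP-driven motor pulls proteins with a presequence into the matrix, where the HSPD1-HSPE1 chaperonin folds them. The VDAC proteins are the outer membrane channels for metabolites and ions, and in proximal tubule cells, which are rich in mitochondria, they and the import machinery serve a large oxidative metabolism.

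The genes of this machinery were taken from the deposited table by symbol. They were the TOMM and TIMM genes named by a number with at most a letter A, B or L, VDAC1 to VDAC3, SAMM50, PAM16, DNAJC19, GRPEL1, HSPA9, HSPD1 and HSPE1. The symbols matched 35 of the 39234 genes in the table, on 19 chromosomes. The rule used symbols and no measured value, but it was chosen with earlier results of these data known. TOMM20L had 0 counts in 5 libraries and 6 counts in control replicate 3, and it did not pass the filter on low counts, so 34 of the 35 genes were tested.

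The libraries came from HK-2 cells, an immortalized human proximal tubule line, with 3 control and 3 USAG-1-overexpressing samples. The labels give mouse as the organism, the genotype WT for all 6 samples and no age, dose or time. In the study, cells were made to overexpress USAG-1 by transient plasmid transfection, and what the control cells of these libraries received is not given in the sources used here. The study's methods give biological replicates for most experiments without naming these libraries, and the labels do not say that the samples were separate cultures, so p-values measure only the spread between these samples, which may be technical.

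Counts of SOSTDC1, the gene of USAG-1, were 79, 80 and 60 in control cells against 5072, 3907 and 4438 after transfection for overexpression. Library totals lay between 41236194 and 48699471 counts. Control replicate 3 stood apart from the other libraries on the second principal component, at -54.3, whereas the other 5 lay between -16.4 and 28.2. Of 9 proximal tubule markers in the table, the summed level lay between 90.2 and 120 CPM (counts scaled to a common library size, with TMM factors) in control cells and between 141 and 169 CPM with overexpression, nearly all of it GGT1. LRP2 had no count in any library, and AQP1, CUBN and HNF4A were near 0. The 8 epithelial markers summed to between 1921 and 2394 CPM in control cells and to between 2272 and 2388 CPM with overexpression. The 12 T cell markers, none of them at 0 throughout, summed to between 90.2 and 103 CPM in control cells and to between 28.9 and 35.5 CPM with overexpression, and 11 of the 12 were significantly lower. The exception, IL7R, had 21.9, 21.0 and 17.8 CPM in control cells and 27.6, 23.6 and 21.9 CPM with overexpression. IL7R thus held most of the sum with overexpression. Of the 11, TRAC for example had 9.82, 9.85 and 11.0 CPM and then 0.871, 0.298 and 0.255 CPM. The 7 myeloid markers summed to between 102 and 133 CPM and between 135 and 155 CPM, the 6 B cell markers to between 3.18 and 4.84 CPM and between 2.44 and 4.15 CPM, and the 5 fibroblast and endothelial markers to between 37.1 and 40.9 CPM and between 52.2 and 54.0 CPM. CD68 carried the higher myeloid sum and was the 1 myeloid marker significantly higher, whereas LYZ and ITGAM were significantly lower. LUM held most of the fibroblast and endothelial sums, with 33.2, 34.6 and 33.0 CPM in control cells and 48.0, 50.3 and 51.0 CPM with overexpression. PECAM1 overlapped between groups, and VWF and CDH5 were near 0. The part of these differences in the results below was not tested.

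The question for these genes was whether their transcript levels differed between USAG-1-overexpressing and control cells. They differed little. Of the 34 genes tested, 2 were differentially expressed at an adjusted p under 0.05 (5.88%), against 15.9% of all 18188 genes tested. Both were significantly lower with overexpression. TIMM10B, a small TIM subunit attached to the inner membrane carrier machinery, fell by 22.3%, and TIMM23B, a near copy of the channel subunit TIMM23, fell by 24.1%. No gene of the group was significantly higher, against 8.95% of all genes, and the share significantly lower over all genes was 6.91%. The count depended on control replicate 3, without which 14 of the 34 were called (41.2%, beside 27% of genes), as described below. In bulk RNA, fewer cells with a transcript and less of it per cell cannot be told apart.

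Fold changes were small throughout the group. The log2 fold changes ran from -0.40 for TIMM23B to 0.31 for TIMM44, with a median of -0.09, beside a median of -0.02 over all genes tested. They were above 0 for 13 genes and below 0 for 21, and 21 of the 34 lay within 0.2 of 0. Standard errors (SE) lay between 0.05 and 0.23, with a median of 0.09. The 95% intervals reached at most down to -0.65, for TIMM29, and up to 0.52, for TOMM7, so a doubling or a halving of the transcript lay outside every interval. The groups did not overlap for 17 genes, 5 with the higher and 12 with the lower level in USAG-1-overexpressing cells, beside 37.6% of all genes (19.4% with the higher and 18.1% with the lower level). An unadjusted p under 0.05 was reached by 14 of the 34 genes and by 5552 of the 18188. The group's shares of non-overlapping genes and of unadjusted p under 0.05 were thus above those over all genes, unlike its share of calls. For non-overlap the excess lay on the lower side.

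Of the 8 alternatives that kept all 6 libraries, 3 called more genes of the group. DESeq2's Wald test called 8, beside 22% of genes, with 2 higher (beside 11.9%) and 6 lower (beside 10.1%). With at least 10 counts in every library edgeR called 6, beside 19%, with 1 higher (beside 10.5%) and 5 lower (beside 8.44%). Scaled by library sizes alone it called 5, beside 16.1%, with 2 higher (beside 9.46%) and 3 lower (beside 6.6%). The count stayed at 2 with DESeq2's size factors (beside 15.7%), with mitochondrially encoded genes left out of the scaling (beside 16%), with limma-voom (beside 15.9%), without the filter on low counts (beside 6.26%) and with a block for the replicate number (beside 13.1%). With the block, TIMM23B lost its call and TIMM17A gained one.

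**Figure D1:**
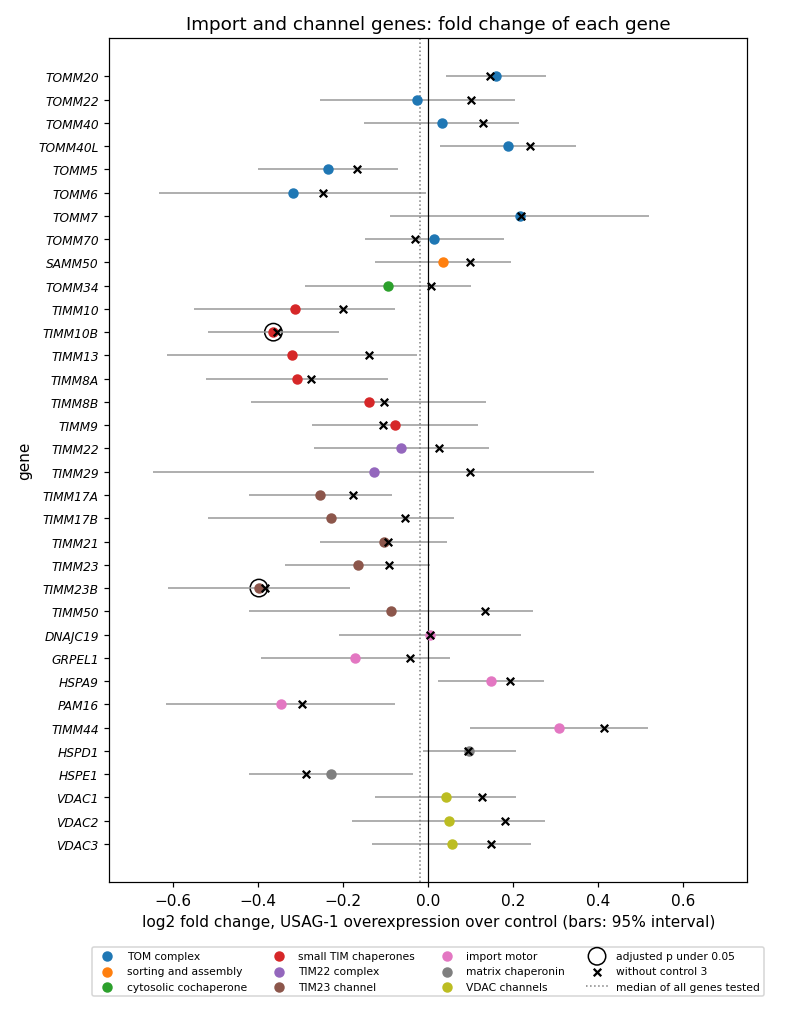
Log2 fold change of USAG-1-overexpressing over control cells for the 34 genes tested, coloured by role, with 95% intervals from edgeR's quasi-likelihood fit (3 libraries per group); rings mark an adjusted p under 0.05, crosses the fit without control replicate 3, and the dotted line the median of all genes tested. The 6 small TIM genes and the 6 genes of the TIM23 channel all lie left of 0, only TIMM10B and TIMM23B are ringed, and most crosses lie right of their points.

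The summed level of the group did not differ by more than the spread between replicates. The 35 genes summed to 3374, 3333 and 3641 CPM in the control libraries and to 3493, 3469 and 3522 CPM with overexpression. The values with overexpression lay inside the control range (p = 0.8, two-sided exact permutation test, where 3 against 3 cannot go below 0.1). Genes with more counts weigh more in this sum. HSPD1, HSPA9, TOMM20 and VDAC1 averaged 829, 406, 316 and 286 CPM in control cells. Their log2 fold changes were above 0, whereas 21 of the 34 genes tested were below 0. For comparison, all 37 transcripts encoded in the mitochondrial genome were significantly lower, with a median log2 fold change of -2.05. For each count on the 35 import and channel genes, the control libraries held 16.4, 16.2 and 13.8 counts on mitochondrially encoded genes and the libraries with overexpression held 4.39, 4.35 and 4.35. This ratio within libraries did not overlap between groups (p = 0.1, two-sided exact permutation test, the smallest it allows).

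Control replicate 3 held high values of many of these genes. It was the highest of the 6 libraries for 22 of the 34 genes (64.7%, beside 25.5% of all genes tested), and its level exceeded the mean of the other 2 controls by a median of 0.18 on the log2 scale, beside -0.00442 over all genes. The excess was 0.57 for TIMM50, 0.55 for TIMM29, 0.47 for TIMM13 and 0.45 for TIMM17B, whereas TIMM10B (0.01) and TIMM23B (0.02) showed next to none. HSPE1 was lower there, at -0.20. Without this library, 14 of the 34 genes were differentially expressed (41.2%), beside 27% of the 18866 genes then tested. Of the 14, 9 were higher, beside 15.8% of genes, and 5 were lower, beside 11.2%. Their median log2 fold change moved to -0.014, 17 of them above and 17 below 0. Without control replicate 1 or 2 only TIMM10B was called, beside 10.2% and 8.74% of genes. Without USAG-1 overexpression replicate 1, 2 or 3 no gene of the group was called, beside 6.92%, 5.98% and 7.09% of genes.

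**Figure D2:**
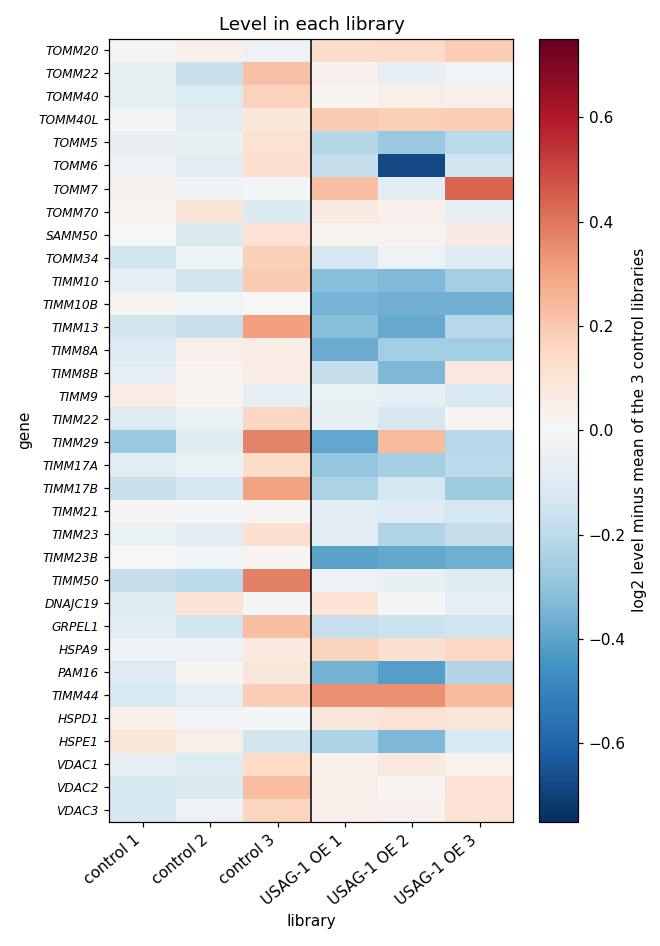
Level of the 34 genes (rows) in the 6 libraries (columns), as log2(CPM + 0.5) minus the mean of the 3 control libraries, red above and blue below. The column of control replicate 3 is mostly red, TIMM10B and TIMM23B are blue in all 3 libraries with overexpression, and TIMM29, TOMM6, TOMM7 and TIMM8B differ within the overexpression group.

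At the outer membrane, none of the 8 TOM genes tested was differentially expressed. The receptor gene TOMM20, whose product binds presequences, had 317, 324 and 307 CPM in control cells and 348, 349.7 and 361 CPM with overexpression. All 3 libraries with overexpression were above all controls, and the log2 fold change of 0.16 (SE 0.05) missed the threshold (adjusted p = 0.072). It passed without control replicate 3 (0.14, adjusted p = 0.0136) and with DESeq2's Wald test (0.15, adjusted p = 0.0301). TOMM70, the receptor for carrier precursors delivered by chaperones, had overlapping groups, between 102 and 118 CPM in control cells and between 106 and 116 CPM with overexpression (log2 fold change 0.01, 95% interval -0.15 to 0.18). TOMM22, the central receptor, likewise overlapped (-0.03, 95% interval -0.25 to 0.20).

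The channel gene TOMM40 had 123, 120.2 and 145 CPM in control cells and 130.2, 134 and 132 CPM with overexpression. Control replicate 3 was the highest of the 6, and the log2 fold change was 0.03 (95% interval -0.15 to 0.21). Without that library it was 0.13 (adjusted p = 0.0341). TOMM40L, a paralog of TOMM40, had 28.8, 27.5 and 30.8 CPM in control cells and 33.3, 32.9 and 33.0 CPM with overexpression, which did not overlap (log2 fold change 0.19, SE 0.07, adjusted p = 0.108). The ratio of TOMM40 to TOMM40L within a library was 2.09, 2.13 and 2.23 on the log2 scale in control cells and 1.97, 2.02 and 2.01 with overexpression, so the paralog was nearer to TOMM40 in every library with overexpression (p = 0.1, two-sided exact permutation test, the smallest it allows, and 0.35 after Benjamini-Hochberg adjustment over 7 pairs).

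The small TOM subunits TOMM5, TOMM6 and TOMM7 stabilize the channel, and their transcripts did not move together. TOMM5 (chromosome 9, 37582646 to 37592604, coordinates here being those of the table, on hg38 by the submitters' notes) had 42.9, 43.2 and 48.7 CPM in control cells and 38.5, 37.0 and 38.9 CPM with overexpression. The groups did not overlap, and the log2 fold change of -0.24 (SE 0.07) had an adjusted p of 0.0599. TOMM7 had 15.7, 15.1 and 15.3 CPM in control cells and 18.0, 14.5 and 20.9 CPM with overexpression. One of the libraries with overexpression was thus the lowest of all 6 and the others the highest.

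TOMM6 (chromosome 6, 41787662 to 41789898) had 70.9, 68.6 and 79.4 CPM in control cells and 64.4, 45.3 and 65.7 CPM with overexpression. Every library with overexpression was below every control, and the second was far below the rest. The whole of TOMM6 lies on the same strand within another gene of the table without a symbol, ENSG00000124593. That gene had 21.3, 20.6 and 23.0 CPM in control cells and 25.4, 39.7 and 27.0 CPM with overexpression, and it was highest in the same library in which TOMM6 was lowest. Summed, the 2 genes had 92.3, 89.1 and 102 CPM in control cells and 89.8, 85.0 and 92.6 CPM with overexpression, which overlapped (p = 0.5, two-sided exact permutation test). How reads shared by such genes were counted is not given in the sources used here, so the value of TOMM6 alone is uncertain.

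SAMM50, the core of the machinery that assembles barrel proteins such as TOMM40 and the VDACs in the outer membrane, had levels of 63.5, 58.8 and 68.5 CPM in control cells and 64.8, 64.5 and 66.2 CPM with overexpression, which lay inside the control range (log2 fold change 0.03, 95% interval -0.13 to 0.19). TOMM34, a cytosolic cochaperone despite its name, lay between 112 and 139 CPM in control cells and between 113 and 119.9 CPM with overexpression (log2 fold change -0.09, 95% interval -0.29 to 0.10). Both genes overlap another gene of the table.

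None of the 3 VDAC genes was differentially expressed with all 6 libraries. VDAC1, the most studied isoform, had 275, 268 and 317 CPM in control cells and 292, 301 and 291 CPM with overexpression. VDAC2, which holds BAK at the outer membrane, had 95.4, 96.1 and 122 CPM and then 107, 105 and 112 CPM. VDAC3 had 60.5, 63.9 and 73.8 CPM and then 67.5, 67.3 and 71.0 CPM. For each of the 3, control replicate 3 was the highest library and the other 2 controls were the lowest. The log2 fold changes were 0.04 (95% interval -0.12 to 0.21), 0.05 (-0.18 to 0.27) and 0.05 (-0.13 to 0.24). Without control replicate 3 they were 0.13 (adjusted p = 0.0223), 0.18 (adjusted p = 0.0169) and 0.15 (adjusted p = 0.0601).

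Ratios between the VDAC isoforms, which do not depend on the scaling between libraries, were nearly the same in both groups. The mean log2 ratio of VDAC1 to VDAC2 differed by -0.01, that of VDAC1 to VDAC3 by -0.02 and that of VDAC2 to VDAC3 by -0.00285 between groups, each less than the SD between replicates of either group. The counts of VDAC2 have a particular limit, since the pseudogene rows named after it held 29.5% as many counts as the gene itself, nearly all in VDAC2P5. For VDAC2P5 itself the log2 fold change was 0.09 ± 0.09 (SE). With its pseudogene rows added, VDAC2 had 135 ± 18.4 CPM in control cells and 140.4 ± 4.76 CPM with overexpression (SD, n = 3 each; p = 0.6, two-sided exact permutation test).

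In the intermembrane space, the log2 fold changes of all 6 small TIM genes were below 0, with a median of -0.31. Over all genes tested, 9544 of 18188 were below 0. Without control replicate 3 the small TIM genes lay between -0.36 and -0.10. The products of TIMM9 and TIMM10 form the main carrier chaperone, TIMM8A and TIMM13 form a second one, TIMM8B is a paralog of TIMM8A, and TIMM10B sits on the TIM22 complex. TIMM10B (ENSG00000132286; chromosome 11, 6481501 to 6483060) had 26.9, 26.2 and 26.7 CPM in control cells and 20.8, 20.6 and 20.7 CPM with overexpression. The groups were far apart compared with the spread in either, and edgeR gave a log2 fold change of -0.36 ± 0.07 (SE) with a Benjamini-Hochberg adjusted p of 0.00969. Over the 14 alternatives tried its log2 fold change lay between -0.38 and -0.35. It lost significance without USAG-1 overexpression replicate 1 (adjusted p = 0.0502), 2 (0.055) or 3 (0.0516), and the range over all alternatives was 2.59e-04 to 0.055. A gene without a symbol that spans TIMM10B on the same strand held a mean of 3 counts per library.

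TIMM8A (chromosome X, 101345661 to 101348742), the gene of deafness-dystonia syndrome, had 15.4, 17.2 and 17.2 CPM in control cells and 12.7, 13.8 and 13.8 CPM with overexpression (log2 fold change -0.31, SE 0.09, adjusted p = 0.0599). TIMM13, whose product pairs with that of TIMM8A, had 59.7, 58.2 and 81.6 CPM and then 52.6, 50.5 and 56.7 CPM (-0.32, SE 0.13, adjusted p = 0.133). TIMM10 had 22.0, 20.9 and 26.5 CPM and then 18.4, 18.2 and 19.3 CPM (-0.31, SE 0.10, adjusted p = 0.077). In these 3 genes every library with overexpression lay below every control, and none passed the threshold. The fold changes of TIMM10 and TIMM13 rested in part on control replicate 3, without which they were -0.20 and -0.14.

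TIMM9, the partner of TIMM10, differed less. Its libraries overlapped, between 15.3 and 16.7 CPM in control cells and between 14.8 and 15.6 CPM with overexpression (log2 fold change -0.08, 95% interval -0.27 to 0.12). TIMM8B overlapped too (-0.14, 95% interval -0.42 to 0.13), and the ratio of TIMM8A to TIMM8B differed by -0.16 on the log2 scale (p = 0.4, two-sided exact permutation test). Summed, the 6 small TIM genes had 157, 156 and 185 CPM in control cells and 135, 132 and 144 CPM with overexpression. These sums did not overlap (p = 0.1, two-sided exact permutation test, the smallest it allows). Of the sums by role only this one was tested. It was made from the genes described above, so its p-value adds no separate support. The sums of the TIM23 channel, lower with overexpression, and of the chaperonin, higher, did not overlap between groups either. The chaperonin sum was mostly HSPD1, and its other gene, HSPE1, had a log2 fold change of -0.23. The summed level of T cell markers was also lower in the libraries with overexpression, as given above. Its part in the difference of the small TIM sums was not tested.

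For the TIM22 complex, which inserts carriers such as the adenine nucleotide translocases, neither gene tested was differentially expressed. TIMM22, the channel, had 28.2 ± 2.78 CPM in control cells and 26.9 ± 1.42 CPM with overexpression (SD, n = 3 each; log2 fold change -0.06, 95% interval -0.27 to 0.14). TIMM29, which links the complex to TOM, was the least precise gene of the group, with 7.14, 8.19 and 11.5 CPM and then 6.58, 10.4 and 7.53 CPM, and its interval ran from -0.65 to 0.39.

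All 6 genes of the TIM23 channel had log2 fold changes below 0, with a median of -0.20. Without control replicate 3, TIMM50 was above 0 (0.13) and the others lay between -0.38 and -0.05. TIMM17A (ENSG00000134375; chromosome 1, 201955503 to 201970664), a channel subunit, had 85.6, 87.6 and 99.8 CPM in control cells and 74.1, 76.0 and 78.8 CPM with overexpression. The groups did not overlap, and its log2 fold change of -0.25 (SE 0.07) lay just outside the threshold (adjusted p = 0.0508). It passed in 5 of 14 alternatives, and adjusted p ranged from 0.0169 to 0.183 over them. Its paralog TIMM17B, which overlaps PQBP1 on the other strand, had 34.2, 35.0 and 47.4 CPM and then 32.5, 35.0 and 31.9 CPM. These overlapped, and the fold change of -0.23 on the log2 scale was -0.05 without control replicate 3. The ratio of the 2 paralogs differed by -0.04 (p = 0.8, two-sided exact permutation test).

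TIMM23 (chromosome 10, 45972489 to 46003742), the pore of the channel, had 92.2, 90.5 and 104 CPM in control cells and 89.9, 81.6 and 84.4 CPM with overexpression. All 3 libraries with overexpression were below the controls, by a margin smaller than the spread in either group (log2 fold change -0.17, SE 0.07, adjusted p = 0.175). TIMM23B (ENSG00000204152; chromosome 10, 49942049 to 49974850) had 13.1, 12.9 and 13.2 CPM and then 9.76, 9.89 and 10.01 CPM. The groups were well separated (log2 fold change -0.40, SE 0.09, adjusted p = 0.0246), and the call was kept in 8 of 14 alternatives, with adjusted p between 0.00358 and 0.0944. It was lost with the replicate block (adjusted p = 0.0595) and without control replicate 1 (0.0659) or 2 (0.0718). It was also lost when any of the libraries with overexpression was left out (0.0944, 0.0914 and 0.0826 for replicates 1 to 3).

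TIMM23B carries a limit like that of TOMM6. It lies almost wholly inside TIMM23B-AGAP6, a readthrough gene on the same strand, which had 7.62, 8.17 and 2.91 CPM in control cells and 7.54, 4.26 and 8.57 CPM with overexpression. These values overlapped between groups and varied widely within each. The sum of TIMM23B and TIMM23B-AGAP6 was 20.7, 21.0 and 16.1 CPM in control cells and 17.3, 14.2 and 18.6 CPM with overexpression, which overlapped (p = 0.3, two-sided exact permutation test). TIMM23B is also close in sequence to TIMM23, and the sum of these was 105, 103 and 118 CPM and then 99.6, 91.5 and 94.4 CPM, which did not overlap (p = 0.1, two-sided exact permutation test, the smallest it allows).

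**Figure D3:**
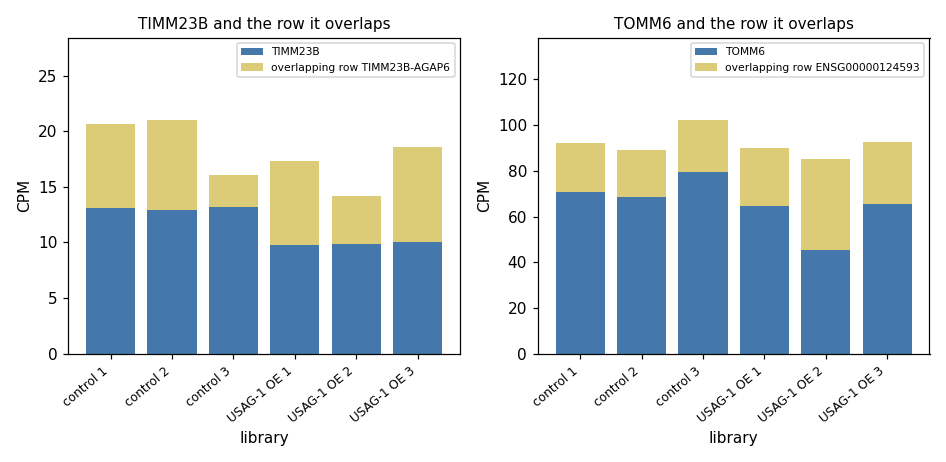
Level in CPM (bars from 0) in each of the 6 libraries for TIMM23B (left) and TOMM6 (right), in blue, with the gene that overlaps each on the same strand stacked above in yellow. TIMM23B and TOMM6 alone do not overlap between control and USAG-1-overexpressing (OE) cells, whereas the stacked heights do, and TOMM6 is lowest in OE replicate 2, where the overlapping gene is highest.

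TIMM50, the receptor that guides presequences into TIM23, had 76.1, 75.0 and 112 CPM in control cells and 83.7, 82.9 and 80.9 CPM with overexpression. Control replicate 3 was above and the other controls were below all libraries with overexpression. The log2 fold change was -0.09 (SE 0.15, adjusted p = 0.733) with that library and 0.13 (adjusted p = 0.0413) without it. TIMM21, which couples TIM23 to TOM and to respiratory complex assembly, had 27.2 ± 0.248 CPM in control cells and 25.3 ± 0.475 CPM with overexpression (SD, n = 3 each; log2 fold change -0.11, SE 0.07, adjusted p = 0.322).

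The import motor genes differed in sign among themselves, and none of the 5 was differentially expressed. TIMM44 (ENSG00000104980; chromosome 19, 7926718 to 7943667), which tethers the motor to the channel, had 32.4, 33.3 and 39.9 CPM in control cells and 44.6, 44.5 and 41.5 CPM with overexpression. All 3 libraries with overexpression were above all controls, the third by little. The log2 fold change of 0.31 (SE 0.09) lay just outside the threshold (adjusted p = 0.0551). Without control replicate 3 it was 0.41 (adjusted p = 8.58e-04), and it passed in 4 of 14 alternatives in all.

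HSPA9, the mitochondrial HSP70 that drives the motor with ATP, had 398, 392 and 426 CPM in control cells and 455, 441 and 452 CPM with overexpression. The groups did not overlap (log2 fold change 0.15, SE 0.05, adjusted p = 0.105), and the difference passed without control replicate 3 (0.19, adjusted p = 0.00218). GRPEL1, the exchange factor that releases ADP from HSPA9, had 73.6, 70.3 and 91.1 CPM and then 69.0, 69.5 and 70.2 CPM. Its levels with overexpression were just below the lowest control (-0.17, 95% interval -0.39 to 0.05).

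PAM16 and DNAJC19 encode the regulatory J-like and J proteins of the motor. PAM16 (chromosome 16, 4331549 to 4351321) had 9.61, 10.4 and 10.9 CPM in control cells and 7.93, 7.60 and 8.78 CPM with overexpression, with no overlap (log2 fold change -0.35, SE 0.12, adjusted p = 0.0839). It overlaps 3 other genes on its strand, the readthrough CORO7-PAM16 among them, so its counts are uncertain. DNAJC19 overlapped, with 19.0 ± 1.47 CPM in control cells and 19.1 ± 1.20 CPM with overexpression (SD, n = 3 each; log2 fold change 0.00369, 95% interval -0.21 to 0.22).

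**Figure D4:**
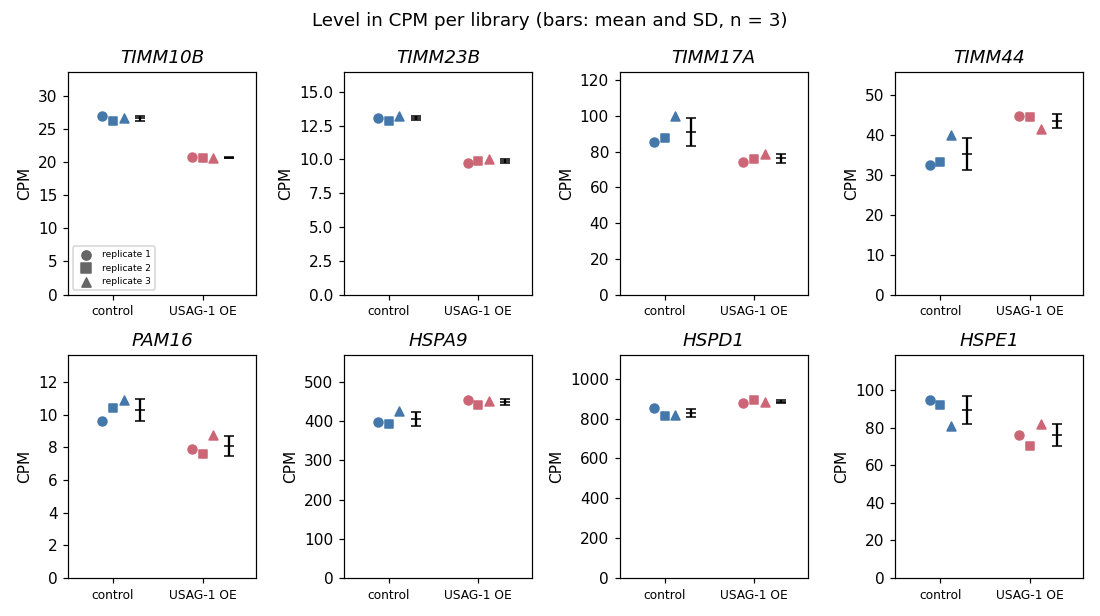
Level in CPM of 8 genes in each library (symbols mark replicates 1 to 3; y axes start at 0), with the mean and SD of each group (n = 3) beside the points. TIMM10B, TIMM23B, TIMM17A and PAM16 lie lower and TIMM44, HSPA9 and HSPD1 higher in every library with USAG-1 overexpression (OE), whereas HSPE1 overlaps through 1 control and 1 OE library.

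In the matrix, HSPD1 (HSP60) and HSPE1 (HSP10) encode the barrel and the lid of the chaperonin. They lie head to head on chromosome 2, with HSPD1 at 197486584 to 197500274 on the minus strand and HSPE1 at 197500140 to 197503449 on the plus strand, so that their annotated starts overlap by 135 bases. HSPD1 had 853, 815 and 819 CPM in control cells and 879, 895 and 884 CPM with overexpression. The groups did not overlap, and the log2 fold change was 0.10 (SE 0.05, adjusted p = 0.219). HSPE1 had 94.8, 91.9 and 80.9 CPM and then 75.8, 70.4 and 82.1 CPM, with a log2 fold change of -0.23 (SE 0.08, adjusted p = 0.105). Control replicate 3 was the lowest control for HSPE1 and lay below 1 library with overexpression.

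The ratio of HSPD1 to HSPE1 was the pair ratio that differed most between groups. On the log2 scale it was 3.17, 3.15 and 3.34 in control cells and 3.53, 3.67 and 3.43 with overexpression. Every library with overexpression was above every control, and the mean was 0.32 higher (p = 0.1, two-sided exact permutation test, the smallest it allows, and 0.35 after adjustment over 7 pairs). Without control replicate 3, HSPD1 (0.09, adjusted p = 0.0449) and HSPE1 (-0.29, adjusted p = 0.0107) were each differentially expressed, in opposite directions. Of the symbols HSPD1P and HSPE1P, the table lists 10 and 12 pseudogene rows, which held 1.64% and 0.894% as many counts as the genes.

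**Figure D5:**
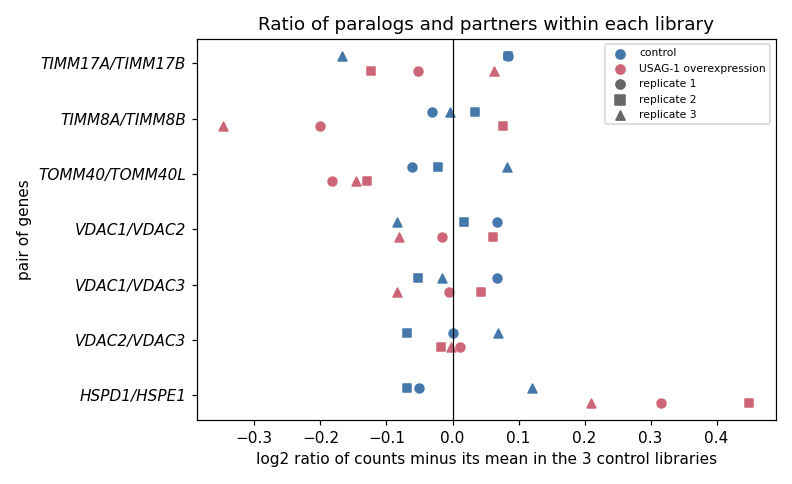
Log2 ratio of the counts of 2 genes within each library, minus its mean in the 3 control libraries, for the 7 pairs compared (blue, control; red, USAG-1 overexpression; symbols mark replicates). The groups do not overlap for HSPD1/HSPE1, which is higher, and TOMM40/TOMM40L, which is lower with overexpression, and overlap for the other 5 pairs.

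Across the 34 genes, the log2 fold change had a Spearman correlation of 0.41 with genomic span (start to end in the table), beside 0.20 over all 18188 genes tested. Genes are not independent replicates, all values share the same 6 libraries, and the part of span in the results was not tested.

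The other genes of the pathway were taken from 5 lists typed from general knowledge. Among 18 tested accessory factors of import, processing and membrane insertion, 2 were differentially expressed, beside 15.9% of all genes, and the median log2 fold change was -0.03. XPNPEP3, a peptidase that trims imported proteins, rose from 20.2 ± 0.729 to 24.3 ± 0.655 CPM (SD, n = 3 each; log2 fold change 0.26, adjusted p = 0.0445), a call kept in 5 of 14 alternatives. MTX2, the metaxin that works with SAMM50, fell from 21.9 ± 0.671 to 17.0 ± 1.64 CPM (SD, n = 3 each; -0.37, adjusted p = 0.0322), kept in 8 of 14. The processing peptidase genes PMPCA (-0.06) and PMPCB (0.03) did not pass.

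Of 13 proteases and chaperones of the matrix and inner membrane, 2 were differentially expressed (15.4%, beside 15.9% of all genes), both higher, and 12 had log2 fold changes above 0 (median 0.15). CLPX, the unfoldase of the ClpXP protease, rose from 34.4 ± 2.41 to 44.5 ± 2.00 CPM (SD, n = 3 each; log2 fold change 0.37, adjusted p = 0.0134), kept in 12 of 14 alternatives. ATF5, a transcription factor of the mitochondrial unfolded protein response, rose from 32.1 ± 1.09 to 39.8 ± 1.29 CPM (SD, n = 3 each; 0.31, adjusted p = 0.0153), kept in 9 of 14. The count was 8 without control replicate 3, beside 27% of all genes then called.

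Of the 7 genes of MICOS, the complex that shapes cristae, 1 was differentially expressed (14.3%, beside 15.9% of all genes). CHCHD3 rose from 81.1 ± 3.51 to 95.7 ± 2.60 CPM (SD, n = 3 each; log2 fold change 0.24, adjusted p = 0.0309), kept in 8 of 14 alternatives. The median of the list was 0.03.

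Of 10 genes whose products work at or with the VDAC channels, 3 were differentially expressed (30%, beside 15.9% of all genes), 2 higher (beside 8.95%) and 1 lower (beside 6.91%), and the median log2 fold change was -0.00748. HK1, the hexokinase that docks on VDAC, rose from 254 ± 17.9 to 319.8 ± 8.68 CPM (SD, n = 3 each; log2 fold change 0.33, adjusted p = 0.0118), and HK2, a second hexokinase with the same docking site, fell from 49.1 ± 2.59 to 41.8 ± 1.65 CPM (-0.23, adjusted p = 0.0496). BCL2L1, an antiapoptotic protein of the outer membrane, rose from 210.5 ± 22.7 to 272 ± 5.02 CPM (0.37, adjusted p = 0.0172). These calls were kept in 11, 4 and 9 of 14 alternatives. None of the 3 adenine nucleotide translocase genes tested passed.

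The cytosolic chaperones and factors that deliver precursors to TOM held the most calls of the 5 lists, 6 of 12 (50%, beside 15.9% of all genes), 3 higher (beside 8.95%) and 3 lower (beside 6.91%), with a median of -0.07. HSPA8, the constitutive cytosolic HSP70, fell from 2881 ± 271 to 1981 ± 63.4 CPM (SD, n = 3 each; log2 fold change -0.54, adjusted p = 0.00254), and its cochaperone DNAJA1 fell by 0.30 on the log2 scale (adjusted p = 0.0108). HSP90AA1, the inducible cytosolic HSP90, rose from 1289 ± 90.8 to 1657 ± 33.3 CPM (SD, n = 3 each; 0.36, adjusted p = 0.00694), whereas HSP90AB1 had -0.11 (adjusted p = 0.178). Among the ubiquilins, which hold membrane precursors in the cytosol, on the same scale UBQLN4 rose by 0.45 (adjusted p = 0.00203) and UBQLN1 by 0.20 (adjusted p = 0.0329), and UBQLN2 fell by 0.33 (adjusted p = 0.0108). HSPA8, HSP90AA1 and UBQLN4 passed in all 14 alternatives, DNAJA1 and UBQLN2 in 12 each and UBQLN1 in 7.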

How the data were processed

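Poly(A)-selected, strand-specific libraries of HK-2 cells were sequenced as paired reads per the labels of the samples, whereas the series' design text speaks of rRNA removal. The authors deposited 1 table of whole-number counts per gene, not normalized, although its name speaks of FPKM. The submitters' processing notes name cutadapt 1.9, FastQC and hg38; aligner and counting tool are not given in the sources used here. Column names tie each column to 1 sample.

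Genes were filtered with filterByExpr and tested by the quasi-likelihood method of edgeR 4.0.16 in R 4.3.3, with TMM factors and no replicate block; 18188 genes held 99.9% of the counts. P-values were adjusted by Benjamini-Hochberg over all of them, and an adjusted p under 0.05 was called. Intervals (95%) use the fit's standard error, which is the log2 fold change over the square root of F, and cover the spread between libraries. Depth lets a count of 0 (3 counts) stand for up to 0.0719 CPM, counting error only. CPM is not per length and was not compared between genes. Ratios used counts plus 0.5. Replicates were checked not to be copies (chi-square per degree of freedom at least 6.87).

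Alternatives were DESeq2 1.42.0 (its size factors and Wald test), limma-voom 3.58.1, library sizes alone, scaling without mitochondrially encoded genes, other filters, a replicate block and each library left out. The fit was tested on simulated counts with log2 fold changes of 1 or 2 in either direction. It recovered 67.7% of the former and 91.6% of the latter, and 5% of its calls were false. Smaller changes, such as those of this group, were not simulated. Members and lists were chosen with earlier results of these data known. Every member could be named, and of each list up to 4 called genes per direction, those with the smallest p; PMPCA, PMPCB, HSP90AB1 and the translocases were named after their values were seen.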

Additional observations from a re-analysis of the deposited data

How the results depend on the processing

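Of 476 refits of single genes, 441 kept their side of the threshold, 25 gained and 9 lost a call, and 1 made a call of opposite sign: TIMM50 ranged from -0.19 to 0.13 when a library was left out and was 0.13 without control replicate 3. The 2 calls of the group became 5 with library sizes alone (2 higher), 8 with DESeq2's Wald test (2 higher, 6 lower) and 6 with at least 10 counts in every library (1 higher, 5 lower). With a library left out they ranged from 0 to 14, with 0 to 9 higher and 0 to 5 lower, and the median log2 fold change ranged from -0.14 to -0.014, the latter without control replicate 3. Over all genes the 2884 calls ranged from 1137 to 5091, with 630 to 2985 higher and 507 to 2106 lower. The list calls ranged from 0 to 6 for accessory factors, 0 to 8 for proteases and chaperones, 0 to 2 for MICOS, 0 to 5 for channel partners and 3 to 8 for precursor delivery. Accessory factors had 1 call with limma-voom, 1 with at least 10 counts in every library, 0 without the filter and 0 with the replicate block, and MICOS had 0 without the filter. The causes were not tested. The sign changed in 21 refits of 12 genes, none of them called with all libraries. With the replicate block, 2 genes of the group were called, TIMM10B and TIMM17A, while TIMM23B was lost (adjusted p = 0.0595). Deviations of libraries with the same number had correlations of 0.07, -0.05 and 0.04 over all genes tested. Over the genes of the group they were 0.51, -0.09 and -0.16. With 3 libraries per group these values cannot decide whether the numbers pair the samples. The no-filter fit included TOMM20L.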
